A study of Mus musculus with 4 samples.

Results

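Splenic macrophage and monocyte genes were examined in CD4+ cells taken from mouse spleen. The 42 genes were chosen by symbol as products of red pulp macrophages, marginal zone macrophages and monocytes. Of these, 41 had a probe set that the platform annotation assigns to that symbol alone, out of 19938 genes measured in this way, and Slc11a1 was not analysed here. The tested samples were 2 of CD4+ lymphoma cells, from C57BL/6 mice homozygous for a gene trap, a transcript-interrupting insertion, in the dioxygenase gene Tet2. The controls were 2 samples of CD4+ splenocytes from C57BL/6 wild type (WT) mice, and each sample was hybridised to 1 array. Genotype and malignancy differ together, so their parts cannot be told apart, and the sources used here give no age, number of animals or purity. The labels name no treatment of the mice, and both groups went through red cell lysis, a biotinylated CD4 antibody and magnetic beads. Such a column enriches for CD4 and does not remove every other cell, and some splenic dendritic cells carry CD4 themselves.

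Red pulp macrophages, which develop under the transcription factor SpiC, engulf aged red cells, split the heme with heme oxygenase and return the iron to blood through the exporter ferroportin. Macrophages of the marginal zone line the border of the white pulp and catch particles and microbes from blood. Monocytes patrol the circulation, are stored in the spleen, and share with macrophages the Fc receptors, Toll-like receptors and lysosomal enzymes used to bind and digest what they take up.

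The macrophage and monocyte genes were mostly lower in lymphoma. In limma with Benjamini-Hochberg adjustment over all genes, 21 of 41 members fell at an adjusted p under 0.05 (called), 1 rose (Axl, a receptor for dying cells) and 19 were not called. Over all genes tested, 2.46% were called lower, 1.82% were called higher and 4.27% were called in either direction. The median log2 difference, lymphoma minus WT, was -1.26 over the members and -0.04 over all genes. Both lymphoma arrays lay below both WT arrays for 34 members, against 23.5% of all genes, and above both for 2 members, Axl and Cybb, against 20.6% of all genes. Among the members 11 were at least 4-fold lower, as were 0.818% of all genes. The falls were spread over most roles, with all 3 C1q chains called lower and neither of the 2 marginal zone genes called. Whether there were fewer macrophages and monocytes in the lymphoma samples or less of these RNAs per cell cannot be told apart in such bulk samples.

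The calls rest on the spread of both groups together. Without either WT array no gene passed in limma, members and the other genes named here included, while 26 and 27 members were lower at an unadjusted p under 0.05 without WT array 1 and without WT array 2. Without lymphoma array 1, 24 members were called lower and 2 higher, and without lymphoma array 2 the counts were 29 and 1. In these fits 1 array stands for its group and is assumed to vary like the other group. The labels do not say that the samples of a group came from separate animals, so p-values measure the spread between these samples only.

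**Figure D1:**
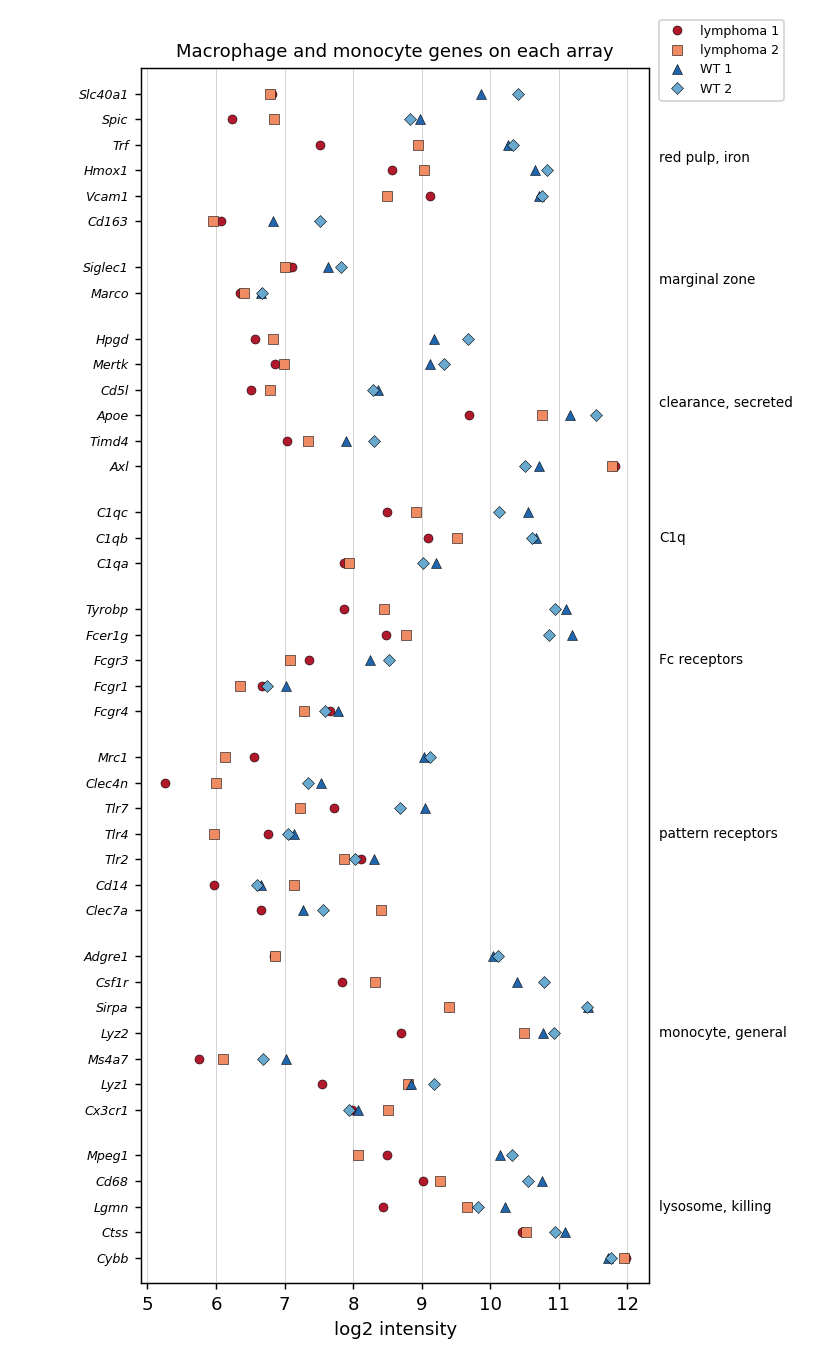
Log2 intensity (horizontal axis) of the 41 members (rows, by role) on each array, with lymphoma as red circles and orange squares and WT as blue triangles and diamonds. The 2 lymphoma points lie left of both WT points for 34 members, lie right of both for Axl and Cybb, and stand far from each other for Lyz2 and Clec7a.

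Arrays were alike in overall level, with median intensities of 138 and 129.8 over 35556 probe sets on the lymphoma arrays and 142 and 141 on the WT arrays. Tet2 had intensities of 596 and 399 on the lymphoma arrays and 980 and 1016 on the WT arrays (adjusted p = 0.077). Where the trap lies relative to these probes is not known from the labels. Among T cell genes, Cd4, the antigen used for the bead selection, had 5839 and 7134 in lymphoma and 4552 and 5153 in WT. Cd3e had 7271 and 7720 in lymphoma and 5823 and 5806 in WT. Neither gene was called (adjusted p = 0.294 for Cd4 and 0.244 for Cd3e). In the list of 9 measured T cell genes, 4 had a negative log2 difference, the lowest -0.92, and none was called.

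Genes of red pulp identity and iron handling were lower in lymphoma, with 4 of 6 measured members called and a median log2 difference of -2.01. Slc40a1, which encodes the iron exporter ferroportin, had intensities of 113 and 111 on the lymphoma arrays and 935 and 1361 on the WT arrays. The 2 lymphoma arrays were nearly equal and far below WT. The log2 difference was -3.33 (SE 0.23, n = 2 per group), a 10.1-fold lower level with an adjusted p of 0.0026, the largest estimated fall among the members. These lymphoma values lay below the median gene level of their arrays (162 and 155), as did those of 8 of the 21 members called lower, Slc40a1 included, and at such levels differences can be understated and their order is uncertain.

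Spic, the factor that directs red pulp macrophage development, had 75.2 and 116 in lymphoma and 506 and 453 in WT. Its log2 difference was -2.36 (SE 0.25, adjusted p = 0.0071). Hmox1, the inducible heme oxygenase, had 378 and 523 in lymphoma and 1615 and 1822 in WT, a log2 difference of -1.95 (SE 0.22, adjusted p = 0.0088). Vcam1, an adhesion molecule of red pulp macrophages that endothelial and stromal cells also make, had 556 and 360 in lymphoma and 1680.0 and 1734 in WT. It fell by 1.93 on the log2 scale (SE 0.24, adjusted p = 0.012).

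The other 2 measured members of the iron group were not called. Trf encodes transferrin, the iron carrier of plasma, and had 184 and 492 in lymphoma and 1231 and 1289 in WT. Its lymphoma arrays stood 2.68-fold apart, and the log2 difference of -2.07 (SE 0.44) had an adjusted p of 0.061. The replicate number as a block gave 0.038. Leaving out lymphoma array 1 gave -1.36 (adjusted p = 0.0012), and leaving out lymphoma array 2 gave -2.78 (adjusted p = 2.2e-07). Cd163, the scavenger receptor for hemoglobin bound to haptoglobin, had 67.1 and 62.1 in lymphoma and 113 and 184 in WT, a log2 difference of -1.16 (SE 0.26, adjusted p = 0.069). With a robust variance trend its adjusted p was 0.045, and it was 0.0093 and 0.014 with lymphoma array 1 or 2 left out.

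The wider set of iron and heme genes did not move as a group, with 1 of 23 measured genes called lower, 2 called higher and a median log2 difference of 0.01. Blvrb, a biliverdin reductase that acts on products of heme breakdown, fell by 1.13 on the log2 scale (adjusted p = 0.033), with 369 and 318 in lymphoma and 820.0 and 682 in WT. Tfrc, the transferrin receptor through which dividing cells take up iron, rose by 1.17 (SE 0.17, adjusted p = 0.019), with 771 and 787 in lymphoma and 349 and 342 in WT. Lcn2, a secreted protein that binds bacterial iron carriers, rose by 1.45 (adjusted p = 0.042), with 189 and 323 in lymphoma and 87.7 and 92.9 in WT. Its call was lost under quantile normalization (adjusted p = 0.051).

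Neither marginal zone gene was called. Marco, a scavenger receptor of marginal zone macrophages, had 82.0 and 85.0 in lymphoma and 101 and 102 in WT, and its log2 difference was -0.28 (95% interval -0.68 to 0.11, adjusted p = 0.52). Siglec1, the sialic acid receptor of metallophilic macrophages, had 138 and 128 in lymphoma and 198 and 227 in WT. Its difference was -0.68 (95% interval -1.10 to -0.25, adjusted p = 0.11). Both lymphoma arrays lay below both WT arrays for the 2 genes, as they did for 23.5% of all genes. Marco was dim on every array, below the median gene level of 155 to 166, and Siglec1 was below it on both lymphoma arrays. At such levels differences can be understated.

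Among receptors for dying cells and secreted macrophage products, 3 of 6 members fell and 1 rose. Mertk, a receptor tyrosine kinase that binds dying cells through bridging proteins, had 116 and 128 in lymphoma and 557 and 644 in WT. It fell by 2.30 on the log2 scale (SE 0.18, adjusted p = 0.0036). Axl, a kinase of the same family, went the other way, with 3627 and 3528 in lymphoma and 1684 and 1459 in WT. Its log2 difference was 1.19 (SE 0.16, adjusted p = 0.015), a 2.28-fold higher level, and it lay between 1.09 and 1.29 when any 1 array was left out.

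Hpgd, the enzyme that inactivates prostaglandins, had 95.3 and 114 in lymphoma and 581 and 818 in WT, a 6.60-fold lower level (adjusted p = 0.0044). Cd5l, a protein that macrophages secrete, had 91.6 and 110.3 in lymphoma and 330.0 and 313 in WT, a 3.20-fold lower level (adjusted p = 0.0080). For both genes the lymphoma arrays lay close together and under WT. Their lymphoma values were below the median gene level of these arrays (162 and 155), where signal over background could not be judged.

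Timd4 and Apoe were not called. Timd4, a phosphatidylserine receptor of resident macrophages, had 131 and 162 in lymphoma and 238 and 318 in WT, a log2 difference of -0.91 (adjusted p = 0.090). With the replicate number as a block the adjusted p was 0.046, and with lymphoma array 2 left out the difference was -1.07 (0.011). Apoe, a lipid carrier made by macrophages, had 829 and 1733 in lymphoma and 2301 and 2976 in WT, a log2 difference of -1.13 (SE 0.36, adjusted p = 0.18). Lymphoma array 2 was 2.09-fold above lymphoma array 1 for Apoe, and leaving it out gave -1.66 (adjusted p = 0.00010). Leaving out lymphoma array 1 gave -0.59 (adjusted p = 0.20).

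**Figure D2:**
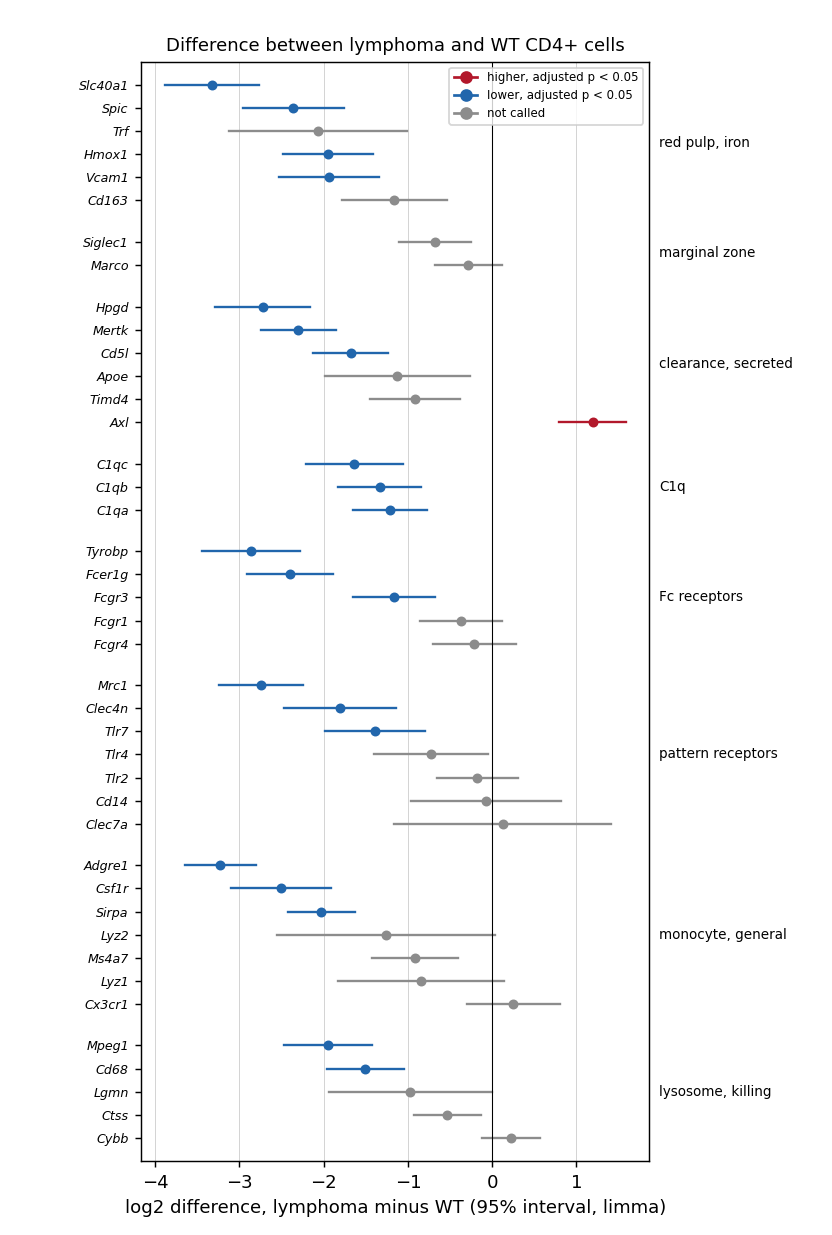
Log2 difference, lymphoma minus WT, of each member (point) with its 95% interval from limma (line), by role. Blue marks 21 members called lower, red marks Axl, the member called higher, and grey marks 19 members not called, including both marginal zone genes.

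C1q, the recognition molecule of the classical complement pathway, is built from 3 chains that splenic macrophages make together. All 3 of its genes fell. The A chain gene, C1qa, had 233 and 245 in lymphoma and 595 and 519 in WT, a log2 difference of -1.22 (SE 0.18, adjusted p = 0.020). C1qb had 547 and 731 in lymphoma and 1631 and 1566 in WT, a difference of -1.34 (SE 0.21, adjusted p = 0.022). C1qc had 362 and 482 in lymphoma and 1503 and 1126 in WT, a difference of -1.64 (SE 0.24, adjusted p = 0.018). For each chain both lymphoma values lay below both WT values, as for 23.5% of all genes. Their 95% intervals overlapped, and differences between the 3 chains were not tested.

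Other complement genes were lower in part, with 5 of 16 measured genes called lower and none higher. Cd55, a membrane protein that dissolves complement convertases, fell by 3.58 on the log2 scale (adjusted p = 0.0082), with 52.0 and 106 in lymphoma and 1150 and 686 in WT. Itgax, a complement receptor chain best known from dendritic cells, fell by 2.72 (adjusted p = 0.0026). Cfp, which encodes properdin, a stabiliser of the alternative pathway, fell by 1.70 (adjusted p = 0.034), and Cd93, a receptor of myeloid and endothelial cells, was 2.83-fold lower (adjusted p = 0.031).

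Spi1, which encodes PU.1, a factor of macrophages and B cells that binds purine-rich DNA with a GAGGAA core, also fell. It had intensities of 159 and 229 in lymphoma and 1461 and 1014 in WT, a log2 difference of -2.67 (SE 0.27, adjusted p = 0.0068). It was the 1 gene called lower among 16 measured myeloid transcription factors, of which Maf was called higher (0.84, adjusted p = 0.033). Over all genes 2.46% were called lower and 1.82% higher, so these counts say little about the list. Maf is also made by T cells, and its call was lost without the variance trend (adjusted p = 0.062). RefSeq sequence upstream of annotated starts (250 bases each, GRCm38.p6) was at hand for 27 of the 41 members. Some genes had several starts, and a gene was counted if any of them held the letters. The letters GAGGAA, on either strand, stood in 14 of these 27, in 7 of 11 called lower and in 6 of 15 not called. They stood in 25.9% of all 27025 genes with such a sequence. The longer string GAGGAAGT, which contains the shorter one, stood in 2 of 27 members and in 2.79% of all genes. Such a match is a description of letters only.

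The stretches of C1qb and C1qc, whose genes fell together, and of Mrc1, which held 3 copies, are shown 5′ to 3′ on the gene's strand, with GAGGAA or its reverse complement TTCCTC in capitals. That of C1qb is chr4:136886201-136886450 (minus strand), that of C1qc is chr4:136892915-136893164 (minus strand) and that of Mrc1 is chr2:14229164-14229413 (plus strand).
C1qb: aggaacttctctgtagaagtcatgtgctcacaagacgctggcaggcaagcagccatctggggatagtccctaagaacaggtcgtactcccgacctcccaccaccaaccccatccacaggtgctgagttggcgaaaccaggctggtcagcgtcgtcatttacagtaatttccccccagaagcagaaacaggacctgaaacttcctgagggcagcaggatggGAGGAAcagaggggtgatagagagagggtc
C1qc: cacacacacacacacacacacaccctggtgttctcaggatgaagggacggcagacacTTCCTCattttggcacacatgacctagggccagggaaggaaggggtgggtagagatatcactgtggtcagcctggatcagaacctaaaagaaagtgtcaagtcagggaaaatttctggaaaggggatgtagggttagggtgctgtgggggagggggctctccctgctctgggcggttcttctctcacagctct
Mrc1: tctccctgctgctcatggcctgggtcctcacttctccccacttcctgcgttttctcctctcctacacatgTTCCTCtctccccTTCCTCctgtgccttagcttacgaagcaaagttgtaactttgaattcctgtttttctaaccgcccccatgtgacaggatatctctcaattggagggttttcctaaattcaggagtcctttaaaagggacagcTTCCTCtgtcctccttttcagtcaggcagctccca

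Fc receptors bind antibody-coated particles and signal through small chains that carry activation motifs. Both signalling chains and 1 of 3 receptors fell. Tyrobp (DAP12), the chain of many activating receptors of myeloid and natural killer cells, had 235 and 348 in lymphoma and 2207 and 1967 in WT, a 7.29-fold lower level (log2 -2.87, SE 0.24, adjusted p = 0.0042). Fcer1g, the common gamma chain of Fc receptors, had 357 and 437 in lymphoma and 2350 and 1853 in WT, a 5.28-fold lower level (log2 -2.40, SE 0.21, adjusted p = 0.0049).

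Of the 3 IgG receptors, Fcgr3, of low affinity, was called. It had 164 and 136 in lymphoma and 304 and 367 in WT, a log2 difference of -1.16 (SE 0.20, adjusted p = 0.031). Fcgr1, the high-affinity receptor, had 102 and 81.5 in lymphoma and 130 and 107 in WT, with a difference of -0.37 (95% interval -0.86 to 0.12). Fcgr4, a receptor of monocytes and macrophages, had 203 and 156 in lymphoma and 221 and 194 in WT, with overlapping groups and a difference of -0.21 (95% interval -0.71 to 0.28). The adjusted p was 0.49 for Fcgr1 and 0.76 for Fcgr4.

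Of 17 other measured genes of the Fc receptor pathway, 7 fell and 1 rose. Among the falls, the log2 difference was -2.64 for Pirb, an inhibitory receptor (adjusted p = 0.0093), and -2.26 for the Src-family kinase Fgr (adjusted p = 0.0055). It was -2.40 for the kinase Btk (adjusted p = 0.0050) and -2.35 for the phospholipase Plcg2 (adjusted p = 0.012), and both also signal in B cells. The gene that rose was Lilrb4a, an inhibitory receptor, with 1188 and 1277 in lymphoma and 623 and 531 in WT (log2 1.10, adjusted p = 0.029). It lies outside the naming rule and was named after its value was seen.

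Among 7 receptors for microbial patterns, 3 fell and 4 were not called. Mrc1, the mannose receptor, had 93.7 and 69.8 in lymphoma and 526 and 558 in WT, a 6.70-fold lower level (log2 -2.74, SE 0.21, adjusted p = 0.0032). Clec4n (Dectin-2), a lectin for fungal mannans, had 38.0 and 64.3 in lymphoma and 185 and 163 in WT (log2 -1.81, SE 0.27, adjusted p = 0.021). Tlr7, the receptor for single-stranded RNA in endosomes, which B cells and plasmacytoid dendritic cells also make, had 211 and 150 in lymphoma and 530 and 411 in WT (log2 -1.39, SE 0.24, adjusted p = 0.033). The lymphoma values of all 3 lay under all WT values, as for 23.5% of all genes.

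The receptors of the cell surface for bacterial products did not pass. Tlr4, the endotoxin receptor, had 108 and 62.6 in lymphoma and 140 and 133 in WT (log2 -0.73, SE 0.28, adjusted p = 0.27), or -1.12 (0.0061) when lymphoma array 1 was left out and -0.33 (0.66) when lymphoma array 2 was. Tlr2, the lipoprotein receptor, had 277 and 233 in lymphoma and 316 and 260 in WT, with overlapping groups (log2 -0.17, 95% interval -0.66 to 0.31). Cd14, the endotoxin co-receptor of monocytes, had 62.7 and 140 in lymphoma and 101 and 96.7 in WT. Its lymphoma arrays lay on either side of WT, and the difference was -0.08 (95% interval -0.97 to 0.81), or 0.50 when lymphoma array 1 was left out and -0.66 when lymphoma array 2 was.

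Clec7a (Dectin-1), a receptor for fungal glucans, split the lymphoma samples in the same way, with 101 and 340 in lymphoma and 154 and 188 in WT. The difference was 0.12 (SE 0.53, adjusted p = 0.96). Leaving out lymphoma array 1 gave 1.00 (adjusted p = 0.018), and leaving out lymphoma array 2 gave -0.75 (adjusted p = 0.076). Leaving out WT array 1 gave -0.02.

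Of 14 other measured genes of the Toll-like receptor pathway, 4 fell and none rose. The log2 difference was -2.49 for Tlr13, an endosomal receptor for bacterial ribosomal RNA (adjusted p = 0.0071), -2.21 for Irak3, an inhibitor of the pathway (adjusted p = 0.0055), and -1.45 for Tlr8 (adjusted p = 0.021). Unc93b1, the transporter of endosomal receptors, fell by 1.37 (adjusted p = 0.047), a call lost without the variance trend (0.053).

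Among the 7 monocyte and general macrophage genes, 3 fell and 4 were not called. Adgre1, which encodes the macrophage antigen F4/80, had 115 and 117 in lymphoma and 1057 and 1110.3 in WT. Both pairs were tight, and the level was 9.35-fold lower (log2 -3.22, SE 0.17, adjusted p = 0.0015). The lymphoma values of Adgre1 lay below the median gene level of their arrays (162 and 155), where differences can be understated. Csf1r, the receptor for the macrophage growth factor, had 230 and 318 in lymphoma and 1341 and 1769 in WT (log2 -2.51, SE 0.24, adjusted p = 0.0061). Sirpa, the receptor that reads the CD47 signal on other cells and that dendritic cells also carry, had 677 and 673 in lymphoma and 2768 and 2732 in WT (log2 -2.03, SE 0.16, adjusted p = 0.0037).

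Genes that monocytes carry gave a mixed picture. Cx3cr1, the fractalkine receptor of monocytes, had 254 and 365 in lymphoma and 268 and 246 in WT, with overlapping groups and a difference of 0.25 (95% interval -0.30 to 0.80), or -0.01 when lymphoma array 2 was left out and 0.51 when lymphoma array 1 was. Ms4a7, a membrane protein of macrophages, had 54.1 and 68.9 in lymphoma and 129 and 103 in WT (log2 -0.92, SE 0.21, adjusted p = 0.077), or -1.10 (0.0078) when lymphoma array 2 was left out. Lyz2, the lysozyme of macrophages and neutrophils, had 415 and 1436 in lymphoma and 1753 and 1951 in WT. Its lymphoma arrays differed 3.46-fold, the widest gap within a group among the members, and the difference of -1.26 (SE 0.53) had an adjusted p of 0.34.

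Lyz1, the lysozyme best known from Paneth cells of the gut, showed the same split, with 187 and 445 in lymphoma and 462 and 583 in WT (log2 -0.84, SE 0.40, adjusted p = 0.41). Leaving out lymphoma array 2 gave -2.16 for Lyz2 (adjusted p = 4.6e-06) and -1.47 for Lyz1 (adjusted p = 0.00062). Leaving out lymphoma array 1 gave -0.36 for Lyz2 and -0.22 for Lyz1. The 2 genes are near copies of each other, so their probe sets may share signal, which was not tested. The likeness extends upstream of the start, where 200 of 248 aligned bases (80.6%) were identical between chr10:117292869-117293118 for Lyz1 and chr10:117282273-117282522 for Lyz2 (both minus strand, GRCm38.p6, RefSeq). These stretches are shown 5′ to 3′ to let the likeness be seen, and neither holds GAGGAA or TTCCTC, so no letters are in capitals.
Lyz1: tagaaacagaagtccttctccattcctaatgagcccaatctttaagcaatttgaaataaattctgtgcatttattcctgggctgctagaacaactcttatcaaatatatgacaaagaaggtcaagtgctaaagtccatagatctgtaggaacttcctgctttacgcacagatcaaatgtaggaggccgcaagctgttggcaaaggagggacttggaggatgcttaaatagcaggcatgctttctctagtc
Lyz2: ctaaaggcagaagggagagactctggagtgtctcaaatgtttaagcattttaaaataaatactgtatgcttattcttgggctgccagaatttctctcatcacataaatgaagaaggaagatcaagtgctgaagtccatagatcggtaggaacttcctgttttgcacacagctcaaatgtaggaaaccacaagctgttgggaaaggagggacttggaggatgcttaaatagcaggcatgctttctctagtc

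Of 16 other measured monocyte genes, 5 fell and none rose. The log2 difference was -3.34 for Plac8, which B cells also make (adjusted p = 0.0053), and -2.84 for Treml4, a receptor of patrolling monocytes and some dendritic cells (adjusted p = 0.0034). It was -1.83 for Csf2rb, the shared receptor chain for granulocyte-macrophage factor (adjusted p = 0.036), and -1.25 for Itgam, the integrin CD11b (adjusted p = 0.040).

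Growth factors and their receptors moved in both directions, with 3 of 9 genes called lower and 1 higher. The genes called lower include Csf2rb, already given among the monocyte genes. Csf1, the ligand of Csf1r, rose by 1.94 on the log2 scale (SE 0.31, adjusted p = 0.025), with 1517 and 844 in lymphoma and 333 and 261 in WT. Csf1r, its receptor, was 5.69-fold lower on the same arrays. Flt3, the receptor of dendritic cell precursors, fell by 3.19 (adjusted p = 0.0021), and its ligand Flt3l fell by 0.92 (adjusted p = 0.045). The call on Flt3l was lost with the replicate number as a block (0.053).

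Genes of the lysosome and of killing were lower in part, with 2 of 5 members called. Mpeg1 (perforin-2), which makes pores in engulfed bacteria, had 363 and 269 in lymphoma and 1133 and 1283 in WT (log2 -1.95, SE 0.22, adjusted p = 0.0082). Cd68, a lysosomal glycoprotein of macrophages, had 520.0 and 616 in lymphoma and 1723 and 1497 in WT (log2 -1.51, SE 0.19, adjusted p = 0.012). Both lymphoma arrays lay below both WT arrays for the 2 genes, as for 23.5% of all genes.

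The proteases Ctss and Lgmn were not called. Ctss (cathepsin S), which trims the chaperone of class II molecules in B cells and dendritic cells too, had 1416 and 1467 in lymphoma and 2192 and 1984 in WT (log2 -0.53, SE 0.16, adjusted p = 0.17). Lgmn (legumain), an asparagine-specific protease, had 348 and 809 in lymphoma and 1193 and 906 in WT (log2 -0.97, SE 0.40, adjusted p = 0.32), or -1.58 (0.00032) when lymphoma array 2 was left out and -0.36 (0.63) when lymphoma array 1 was. Cybb, the membrane subunit of the phagocyte oxidase, was bright throughout, with 4045 and 3975 in lymphoma and 3381 and 3477 in WT. Its difference was 0.23 (95% interval -0.12 to 0.57, adjusted p = 0.58).

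Among 16 other measured lysosomal genes, Ctsh (cathepsin H) fell by 1.67 on the log2 scale (adjusted p = 0.011), with 332 and 340 in lymphoma and 1231 and 926 in WT, and none rose. The median of that list was -0.47. Over all genes 2.46% were called lower, so 1 call among 16 says little about the list.

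The 2 lymphoma arrays differed from each other in a subset of the members. Lymphoma array 2 was at least 2-fold above lymphoma array 1 for 7 of 41 members, namely Lyz2, Clec7a, Trf, Lyz1, Lgmn, Cd14 and Apoe, with ratios from 2.09 to 3.46. The reverse held for 0 members, and the WT arrays were 2-fold apart for 0 members. Over all genes these shares were 1.72% with array 2 higher, 2.20% with array 1 higher and 1.08% for the WT arrays. None of these 7 genes was called, which follows in part from how they were picked, since a gap within a group widens the SE. Genes with near-equal lymphoma arrays included Adgre1, Slc40a1 and Sirpa, whose lymphoma ratios were 1.01, 0.981 and 0.995. The lymphoma values of Adgre1 and Slc40a1 lay below the median gene level of these arrays (162 and 155), where signal over background could not be judged.

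**Figure D3:**
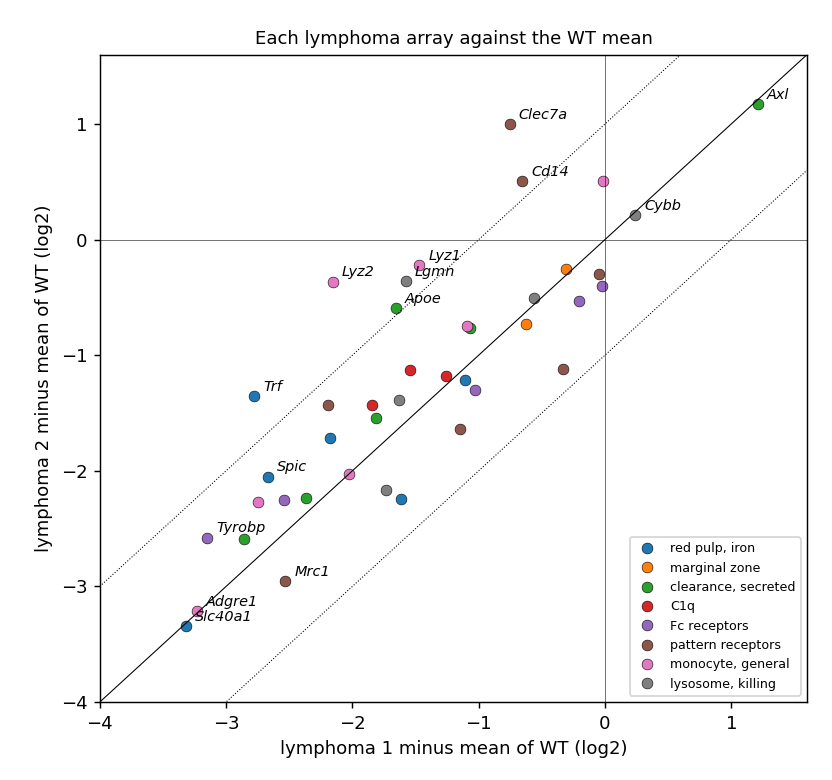
Log2 intensity of each member on lymphoma array 1 (horizontal axis) and lymphoma array 2 (vertical axis), each minus the mean of the WT arrays, coloured by role. The solid line marks equal values and the dotted lines a 2-fold difference, beyond which lie 7 members, all higher on lymphoma array 2.

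Markers of other cell types moved on the same arrays. Of 9 measured B cell markers 7 fell and none rose, and their summed intensity was 3272 and 2634 on the lymphoma arrays and 20392 and 13787 on the WT arrays. Of 10 dendritic cell markers 7 fell and none rose, with sums of 974.6 and 965.9 in lymphoma and 5539 and 4618 in WT. The dendritic cell falls include Itgax and Flt3, already given among the complement and growth factor genes. The medians of the log2 differences were -3.29 for B cell and -2.54 for dendritic cell markers, and -1.26 for the macrophage and monocyte genes. The lists differ in length, and the members include genes that other cells also make, so these medians do not rank the cell types. The summed intensity of the 41 members was 18203 and 21890.2 in lymphoma and 40362 and 40851 in WT. That sum includes 2 bright genes above WT on both lymphoma arrays, while 34 members lay below. These were Cybb (4045 and 3975 in lymphoma, 3381 and 3477 in WT) and Axl (3627 and 3528 in lymphoma, 1684 and 1459 in WT). The part of B cells and dendritic cells in the differences of genes they share with macrophages was not tested.

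The other lists had no gene called lower. No gene of the T cell list was called among 9 measured, with sums of 31538 and 32515 in lymphoma and 28827 and 28107 in WT. Within that list 4 of the 9 genes had a negative log2 difference, the lowest -0.92, and the median was 0.32. For Cd3d, Cd3e and Cd3g alone the median log2 difference was 0.45. Of 10 neutrophil markers 1 rose, Ngp (log2 1.49, adjusted p = 0.0093), and none fell, with sums of 1185 and 1207 in lymphoma and 838 and 960 in WT. None was called among 6 natural killer cell markers, 7 erythroid markers, 4 platelet markers and 8 stromal and endothelial markers. Erythroid sums were 644 and 1265 in lymphoma and 671 and 834 in WT. Natural killer sums were 1643 and 2296 in lymphoma and 1436 and 1168 in WT. Yet 4 of the 6 natural killer markers had a negative log2 difference, with a median of -0.30. Platelet sums were 359 and 423 in lymphoma and 382 and 457 in WT. Stromal sums were 1528 and 1555 in lymphoma and 2317 and 2060 in WT. Of the 8 stromal and endothelial markers 7 had a negative log2 difference, with a median of -0.15. Both lymphoma arrays lay below both WT arrays for 6 of the 8, against 23.5% of all genes. No marker was at 0 on any array, since every probe set carries some signal.

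**Figure D4:**
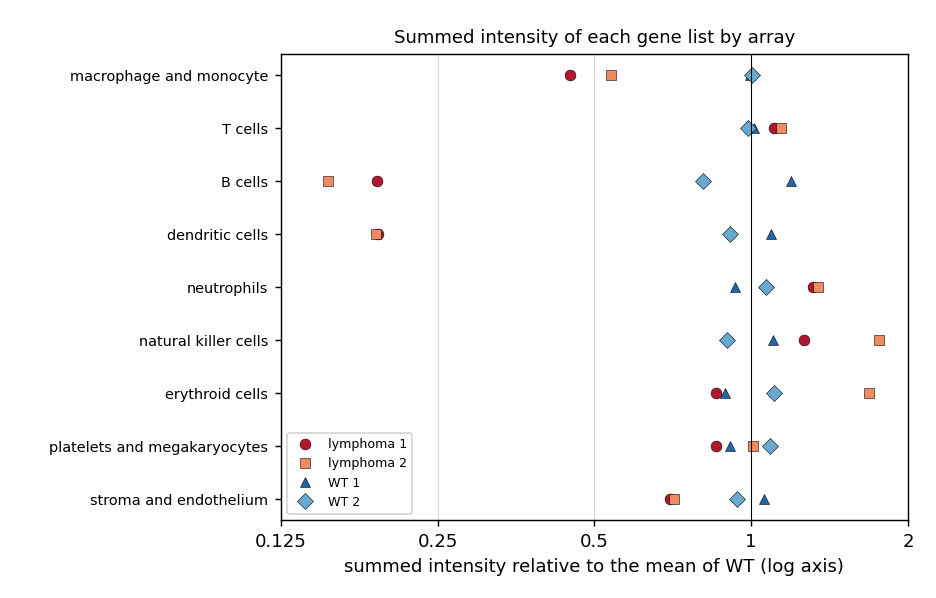
Summed intensity of each list on each array, relative to the mean of the WT arrays (log axis). Macrophage and monocyte, B cell and dendritic cell sums lie below WT on both lymphoma arrays, as do stromal sums. T cell, neutrophil and natural killer sums lie above WT on both. Yet 4 of 9 T cell and 4 of 6 natural killer markers had negative log2 differences. The erythroid sum is high on lymphoma array 2.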

How the data were processed

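Expression was measured in 4 samples on 1 single-channel array each. The authors deposited linear intensity values, 1 per probe set and array, made with Affymetrix Expression Console per the submitters' processing notes. Its version and its summarisation, background and normalization steps are not stated in the labels. No detection calls were used.

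From the deposited values log2 was taken with no pseudocount or filter. Of 35556 probe sets, 21789 had 1 symbol in GEO's platform annotation, 1621 had several and 12146 were not listed. For genes with several probe sets the brightest on average was kept, which left 19938 genes. Each of the 41 members had 1 probe set, and all 41 symbols matched RefSeq by identifier. The comparison of lymphoma with WT used limma 3.58.1 under R 4.3.3, with no covariate, a mean-variance trend, 2 residual degrees of freedom and two-sided p-values adjusted by Benjamini-Hochberg over all genes. The number of arrays limits the precision. The procedure was tested on simulated data. Members, gene lists and tests were chosen with earlier results of these data known. Named genes are the measured members, up to 4 called genes by size of each related list, and the T cell genes. Tet2, Ngp, Lilrb4a and the genes under other observations lie outside this rule and were named with their values known. Upstream sequences came from RefSeq (GRCm38.p6), and figures were drawn with matplotlib 3.10.9. Alternatives were quantile normalization, median subtraction, leaving out the lowest tercile, no or a robust variance trend, probe set averages, the replicate number as a block, and leaving out each array.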

Additional observations from a re-analysis of the deposited data

How the results depend on the processing

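Under quantile normalization, median subtraction, omission of the lowest tercile, no variance trend and averaged probe sets, 21 members were lower and 1 higher. A robust trend gave 22 lower, and the replicate block gave 23 lower and 1 higher. The median of the members lay between -1.36 and -1.22 under these settings. With 1 array left out it lay between -1.58 and -1.22, the count of members lower between 0 and 29 and that of members higher between 0 and 2. Over all genes those fits called between 0 and 1057 higher and between 0 and 843 lower, against 362 and 490 with all arrays. Calls were 0 in limma without WT array 1, where an unadjusted p under 0.05 picked 1418 higher and 890 lower genes, and without WT array 2, where it picked 929 and 1120. Cd14 changed sign under quantile normalization (0.024). With 1 array left out its difference lay between -0.66 and 0.50, that of Clec7a between -0.75 and 1.00 and that of Cx3cr1 between -0.013 and 0.51. The causes were not tested. With median subtraction 480 genes were higher and 496 lower, and no scaling moved the median of all genes by over 0.1. Same-numbered samples deviated together (r = 0.23 across genes), but the labels do not say what the numbers share. With the replicate block 429 genes were higher and 555 lower, and the block added calls on Trf (adjusted p = 0.038) and Timd4 (0.046). Signal over background could not be judged, and 15 members, 8 of them called lower, lay below the median gene level on both lymphoma arrays, and 5 members on both WT arrays, where differences may be understated.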

Other observations

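Several genes outside the macrophage and monocyte members also stood apart on lymphoma array 2, chosen here after their values were seen. The myeloid transcription factor Cebpa had 313 and 1033 on the lymphoma arrays and 270 and 235 on the WT arrays. S100a4, a calcium-binding protein of monocytes and memory T cells, had 283 and 856 in lymphoma and 451 and 384 in WT. The erythroid anion exchanger Slc4a1 had 175 and 548 in lymphoma and 178 and 196 in WT, and the iron transporter Slc11a2 had 453 and 884 in lymphoma and 386 and 364 in WT. B cell genes ran the other way, with Cd79a at 519 and 168 in lymphoma and 4016 and 2175 in WT. Of 9 B cell markers, 5 were at least 2-fold higher on lymphoma array 1 and 1 was at least 2-fold higher on lymphoma array 2.

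The iron storage genes were bright on every array and were not called. Fth1, the ferritin heavy chain, had 6415 and 8283 in lymphoma and 7680.1 and 7038 in WT (log2 -0.01, adjusted p = 0.99). Ftl1, the light chain, had 4263 and 4124 in lymphoma and 5264 and 4637 in WT (log2 -0.24, adjusted p = 0.57).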
